A study of Bos taurus with 12 samples.

Results

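The genes described here are TEK, TIE1, FLT1 and ENG, which encode 4 cell surface receptors of endothelium. They were chosen by gene symbol in the array's probe annotation. Each has 1 probe set, the group of probes that reports 1 transcript, so 4 of the 3977 genes with a named probe set are described, and all 24016 probe sets entered the tests. Cultured bovine aortic endothelial cells at passage 15 were grown to confluence for 5 days on glass coverslips in DMEM with 10% serum and 1% penicillin and streptomycin. For the last 24 h before flow they were kept in flow medium with 5% serum and 8% Dextran 70. They were then held for 24 h in a flow loop in 1 of 4 flow conditions, with 3 Affymetrix arrays each. Baseline flow was a uniform wall shear stress, the drag of flowing medium on the cell surface, of 3.5 Pa, and high flow was a uniform 28.4 Pa. The remaining arrays came from cells in a positive or in a negative spatial gradient of wall shear stress. Local stress values for the gradient chambers are not among the labels, and no group was kept without flow. They do not say whether replicates were separate cultures, so p-values measure only the spread between these samples, which may be technical.

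TEK (also called TIE2) is the tyrosine kinase receptor of the angiopoietins. Its signal keeps endothelium quiescent and its junctions tight, and TIE1 is a related receptor that pairs with TEK and modulates its signal. FLT1 (VEGFR1) binds vascular endothelial growth factor A, its relative VEGFB and placental growth factor. It has weak kinase activity and acts largely as a trap that limits signalling through KDR. ENG, endoglin, is a co-receptor for ligands of the TGF-beta family, in endothelium chiefly BMP9, and works with the receptor ACVRL1. Loss of either gene causes hereditary haemorrhagic telangiectasia in people. By its title, the study set out to compare the positive with the negative gradient. Flow sensing by the endothelium is known to involve both endoglin and growth factor receptors.

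Values are log2 signals after robust multi-array averaging (RMA), so a difference of 1 is a doubling of signal, and arrays had medians between 5.65 and 5.71. Signals of different probe sets are not comparable with each other, so levels are compared only within a gene. Endothelial markers were present on every array: the mean of the 13 measured ones, the 4 receptors included, lay between 9.05 and 9.29 in the baseline arrays, between 9.29 and 9.61 at high stress, and between 9.52 and 9.70 in the gradient arrays. The leukocyte marker CD14, the only measured one of its list, ranged from 3.98 to 7.99. The 2 measured smooth muscle markers averaged between 6.71 and 8.56 and the 3 measured fibroblast markers between 8.52 and 9.76. In bulk RNA, fewer cells of a type and less RNA per cell cannot be told apart, and the part of other cells in the results below was not tested.

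High replicate 3 stood apart from its group. Over all tested probe sets it was nearest to positive gradient replicate 3 (a root mean square difference of 0.197, below that of any other pair of arrays), and it lay 0.442 and 0.441 from high replicates 1 and 2. The array's GAPDH control compares the 3′ with the 5′ end of 1 transcript and so reports how complete the labelled RNA was. It split the arrays, with high replicate 3 on the side of the gradient arrays. The 3′ minus 5′ difference lay between 0.040 and 0.34 (log2) on the 6 gradient arrays, was 0.089 on high replicate 3, and lay between 0.59 and 0.70 on the other 5 uniform-flow arrays. For the EF1A control the ranges were −2.16 to −1.54, −2.03, and −1.42 to −1.04. The ACTB control did not split the arrays in this way: its ranges, 0.63 to 1.53, 1.14, and 1.01 to 1.69, overlapped. Gradient samples and uniform-flow samples also carry separate runs of record numbers. Whether this array was labelled or processed like the rest of its group cannot be told from the files, and its values enter every mean of the high group. Results of the receptors and of the named pathway genes that involve the high group are therefore given with and without this array.

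**Figure D1:**
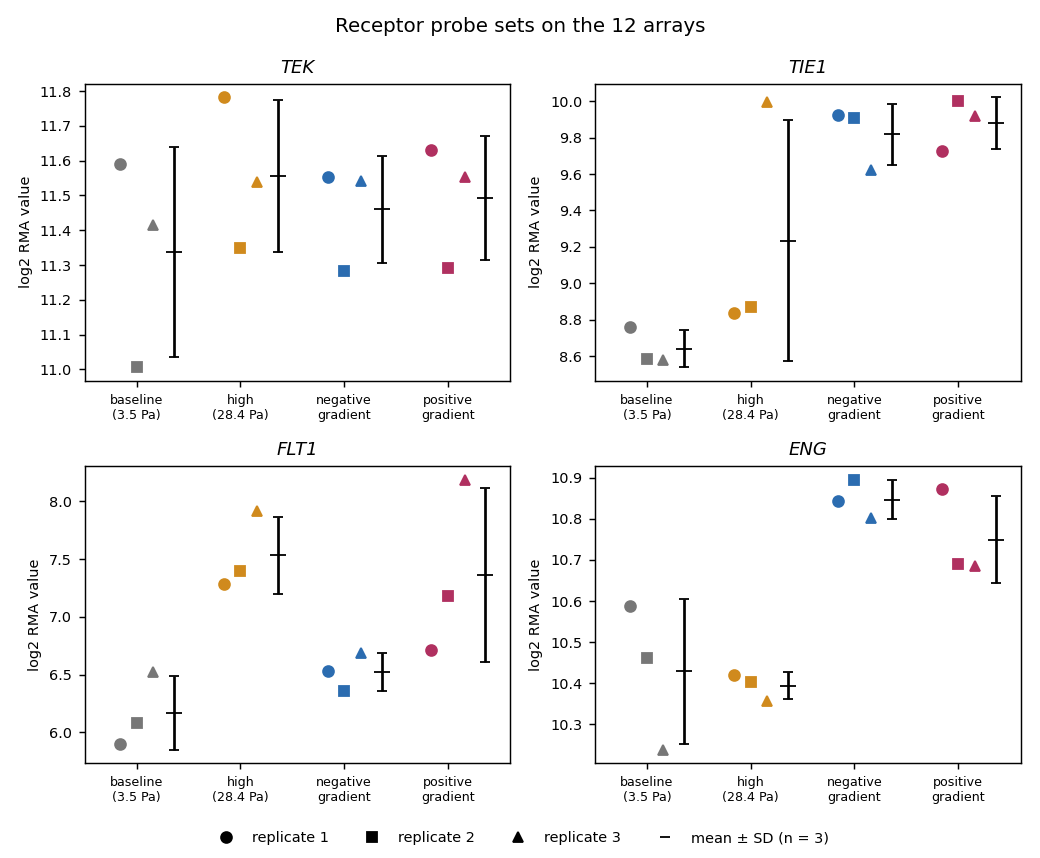
Log2 RMA value (y axis) of the 4 receptor probe sets on each of the 12 arrays, by flow group (x axis). Symbols give the replicate number and bars the mean ± SD of 3 arrays. TEK overlapped in all groups with replicate 2 lowest in each, TIE1 was high on the gradient arrays and on high replicate 3, FLT1 was highest in the positive gradient and high groups, and ENG was higher on all 6 gradient arrays than on all 6 uniform-flow arrays.

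TEK showed no detectable difference between any of the flows. Its values were 11.59, 11.01 and 11.41 on baseline replicates 1 to 3, and 11.78, 11.35 and 11.54 at high stress. They were 11.55, 11.28 and 11.54 under the negative gradient and 11.63, 11.29 and 11.55 under the positive gradient. The 4 groups overlapped, and replicate 2 was the lowest array of each of them. Group means were 11.34 ± 0.30 (SD, n = 3) for baseline, 11.46 ± 0.15 for the negative gradient, 11.49 ± 0.18 for the positive gradient and 11.56 ± 0.22 for high stress, and no neighbours in this order differed beyond their spread. The widest difference, high against baseline, was 0.22 (SE 0.173, 95% interval −0.15 to 0.59, adjusted p = 0.602 by limma). It was 0.19, 0.34 and 0.12 for replicates 1 to 3, with an SE of 0.110 and an adjusted p of 0.288 with replicate number as a block, and 0.23 (adjusted p = 0.707) without high replicate 3. The 95% intervals of the other comparisons lay within −0.47 and 0.53 without the block. Against high stress TEK differed by −0.064 for the positive and −0.096 for the negative gradient, and by −0.073 and −0.11 without high replicate 3. Replicate number accounted for 75.3% of the sum of squares of TEK over the 12 arrays and flow group for 16.5%. Over all tested probe sets the median shares were 19.6% for replicate number and 38.6% for flow group, and 1.91% of probe sets had a replicate share as large as that of TEK. Replicate 2 was lowest in all 4 groups for 4.50% of probe sets and highest in all 4 for 4.71%.

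TIE1, the partner of TEK, rose about 2.3-fold in both gradients relative to baseline. Baseline replicates 1 to 3 read 8.76, 8.58 and 8.58. The negative gradient arrays read 9.93, 9.91 and 9.62, and the positive gradient arrays 9.73, 10.00 and 9.92. Every gradient array stood above every baseline array, while the arrays of the 2 gradients overlapped. At high stress the values were 8.84, 8.87 and 10.00, so high replicate 3 read with the gradient arrays and the others lay just above baseline.

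Under the positive gradient TIE1 stood at 9.88 ± 0.14 (SD, n = 3) against 8.64 ± 0.10 at baseline, a log2 change of 1.24 (SE 0.247, adjusted p = 0.0211 by limma; 2.36-fold). Under the negative gradient it stood at 9.82 ± 0.17, a log2 change of 1.18 (SE 0.247, adjusted p = 0.0393; 2.26-fold). Both comparisons use the same baseline arrays. The difference by replicate number was 0.97, 1.42 and 1.34 for the positive and 1.17, 1.32 and 1.04 for the negative gradient. With replicate number as a block the adjusted p-values were 0.00967 and 0.0295. High replicate 3 widens the spread shared by all groups. Without this array, and without the block, the adjusted p-values were 0.00125 and 0.000973. The gradients themselves differed by 0.063 (95% interval −0.47 to 0.60, adjusted p = 1.00). In fits without the block, the call against baseline was lost for the positive gradient without positive replicate 1, 2 or 3 or baseline replicate 3 (adjusted p = 0.0635, 0.0636, 0.0669 and 0.0704). For the negative gradient it was lost without any 1 of the 9 baseline and gradient arrays (adjusted p from 0.0565 to 0.141), although the log2 change stayed between 1.12 and 1.28.

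Against high stress the TIE1 result depended on 1 array. With all arrays the high group averaged 9.23 ± 0.66 and the log2 differences were 0.65 for the positive (adjusted p = 0.790) and 0.58 for the negative gradient (adjusted p = 0.284). Without high replicate 3 they were 1.03 (SE 0.139, adjusted p = 0.0208) and 0.96 (SE 0.139, adjusted p = 0.00494). High against baseline was 0.59 (SE 0.247, adjusted p = 0.276) with that array and 0.21 (SE 0.139, adjusted p = 0.588) without it. With high replicate 3 left out, the high arrays read 0.64 and 0.70 in the GAPDH control, against 0.34 or less on every gradient array. The part of RNA completeness in the differences between the gradients and high stress was not tested.

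The TIE1 values followed the same split of arrays as the GAPDH control. The 6 gradient arrays and high replicate 3 lay between 9.62 and 10.00, and the other 5 uniform-flow arrays between 8.58 and 8.87. Within the high group, replicate 3 read 1.14 above the mean of replicates 1 and 2 for TIE1, 0.57 above it for FLT1, 0.054 below it for ENG and 0.027 below it for TEK. For FLT1, replicate 3 was the highest array of every flow group and not of the high group alone. In all, 6.83% of probe sets had the 7 arrays above the other 5, and 5.36% had them below. Probe sets of the same gene could differ in this split. Over all the marker and pathway lists, 23 genes had more than 1 probe set, with 28 dimmer probe sets besides the brightest. Of these 28, 20 had a higher value than the brightest for the positive gradient against baseline and 21 for the negative gradient, and the rest had a lower one. The split was shown by 8 of the 28 dimmer and by 2 of the 23 brightest probe sets, those of AKT1 and TIMP1. For CDH5, the endothelial cadherin, the positive gradient differed from baseline by 0.22 (adjusted p = 0.284) at the brighter and by 0.82 (adjusted p = 0.0302) at the dimmer probe set. For AKT1, a kinase that carries TEK signals, the values were 0.40 (adjusted p = 0.0643) and 1.32 (adjusted p = 0.0188). For the growth factor FGF2 they ran the other way, 0.37 at the brighter and −0.073 at the dimmer probe set. TIE1 has only 1 named probe set to set beside these. This comparison was added, and its examples chosen, after the values were seen, and the part of RNA completeness in the TIE1 difference was not tested.

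**Figure D2:**
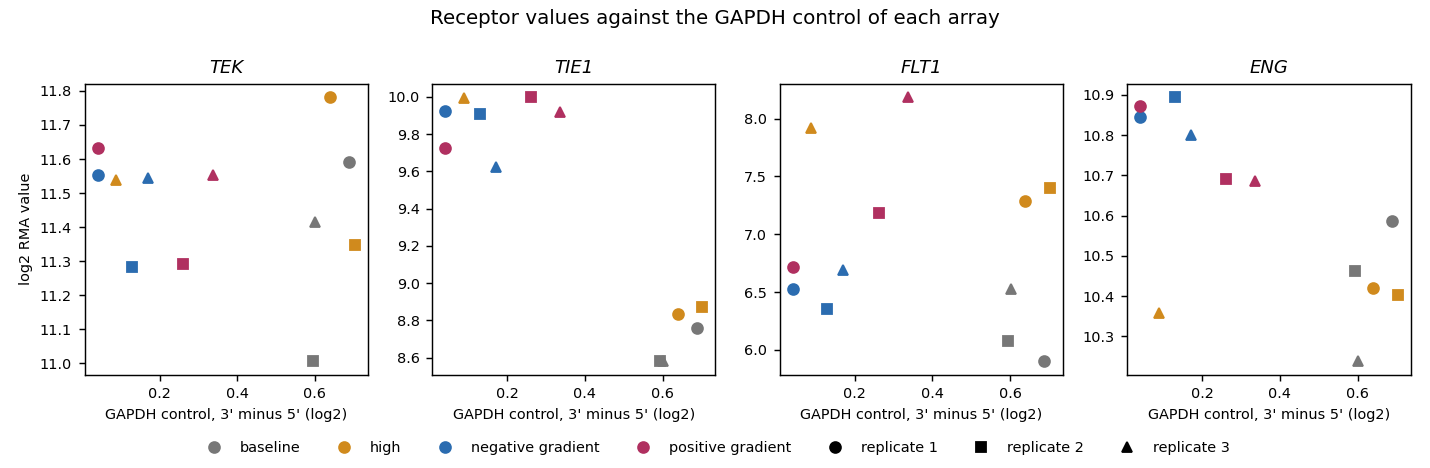
Log2 RMA value of each receptor (y axis) against the 3′ minus 5′ difference of the array's GAPDH control (x axis, log2), 1 point per array, coloured by flow group with symbols for the replicate number. TIE1 read 9.62 to 10.00 on the 7 arrays with a control difference of 0.34 or less and 8.58 to 8.87 on the 5 arrays at 0.59 or more, whereas ENG on high replicate 3 (10.36) read with the uniform-flow arrays.

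FLT1, the decoy receptor of VEGF, was highest in the positive gradient and in uniform high flow. Its values were 5.90, 6.08 and 6.53 on baseline replicates 1 to 3 and 7.29, 7.40 and 7.92 at high stress. The negative gradient arrays read 6.53, 6.36 and 6.69 and the positive gradient arrays 6.71, 7.18 and 8.19. All high-stress arrays stood above all baseline and all negative gradient arrays. The positive gradient arrays stood above the baseline and the negative gradient arrays and overlapped those at high stress. They spread widely, with replicate 3 the highest of the 12 arrays. In every flow group replicate 3 read highest. Replicate number accounted for 21.2% of the sum of squares of FLT1, near the median of 19.6% over all tested probe sets.

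FLT1 rose from 6.17 ± 0.32 (SD, n = 3) at baseline to 7.36 ± 0.75 under the positive gradient, a log2 change of 1.19 (SE 0.306, adjusted p = 0.0394 by limma; 2.29-fold). At high stress it stood at 7.53 ± 0.34, a log2 difference from baseline of 1.36 (SE 0.306, adjusted p = 0.0710; 2.57-fold), which passed with replicate number as a block (SE 0.189, adjusted p = 0.00331). The block compares arrays of the same number, and those differences were 1.38, 1.32 and 1.39. For the positive gradient they were 0.81, 1.10 and 1.66, and the adjusted p with the block was 0.00502 (SE 0.189). The negative gradient, at 6.52 ± 0.17, differed from baseline by 0.36 (95% interval −0.31 to 1.02, adjusted p = 0.502). Order by mean was baseline, negative gradient, positive gradient and high stress, and no pair of neighbours in it differed past the test.

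Between the gradients FLT1 was the receptor with the widest difference, 0.84 (SE 0.306, 95% interval 0.18 to 1.5, 1.79-fold). It did not pass over all probe sets, at an adjusted p of 0.854 by limma and 0.127 with the block. By replicate number the difference was 0.19, 0.83 and 1.5. The negative gradient differed from high stress by −1.01 (SE 0.306, adjusted p = 0.154), or by −0.82 (adjusted p = 0.149) without high replicate 3, and the positive gradient differed from high stress by −0.17 (95% interval −0.83 to 0.49, adjusted p = 0.915), or by 0.019 without high replicate 3. Without that array, high against baseline was 1.17 (SE 0.335, adjusted p = 0.218), or 1.40 with the block (adjusted p = 0.0137). In fits without the block, the call of the positive gradient against baseline was lost without any 1 of the 6 arrays of these groups (adjusted p from 0.0548 to 0.108). Its size was 0.78 without positive replicate 3, the smallest of these fits, and 1.52 without positive replicate 1, the largest. Without positive replicate 3 the high against baseline difference passed (adjusted p = 0.0304).

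ENG had small differences that separated the gradients from the uniform flows. Baseline replicates 1 to 3 read 10.59, 10.46 and 10.24, and the high-stress arrays 10.42, 10.40 and 10.36. The negative gradient arrays read 10.84, 10.89 and 10.80, and the positive gradient arrays 10.87, 10.69 and 10.69. All 6 gradient arrays stood above all 6 uniform-flow arrays, high replicate 3 included, a split that 0.641% of probe sets showed in this direction and 0.641% in the other. Gradient and uniform-flow samples are also the 2 runs of record numbers. For ENG, as for the other receptors and the list genes, a gradient effect and a difference between these runs cannot be told apart.

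ENG means were 10.85 ± 0.047 (SD, n = 3) for the negative gradient, 10.75 ± 0.11 for the positive gradient, 10.43 ± 0.18 for baseline and 10.39 ± 0.033 for high stress. The negative gradient differed from baseline by 0.42 (SE 0.121, adjusted p = 0.0809 by limma; 1.34-fold), and this passed with the block (adjusted p = 0.0466) and without high replicate 3 (adjusted p = 0.0490). The positive gradient differed from baseline by 0.32 (SE 0.121, adjusted p = 0.112; 0.0652 with the block; 1.25-fold), and passed only with the block and without high replicate 3 together (adjusted p = 0.0443). By replicate number the differences were 0.26, 0.43 and 0.56 for the negative and 0.29, 0.23 and 0.45 for the positive gradient. Against high stress the log2 differences were 0.45 (SE 0.121, adjusted p = 0.122) for the negative and 0.36 (SE 0.121, adjusted p = 0.790) for the positive gradient. Without high replicate 3 they were 0.43 (adjusted p = 0.0668) and 0.34 (adjusted p = 0.175), and high against baseline was −0.017 (adjusted p = 0.976). Neither the 2 gradients (−0.097, 95% interval −0.36 to 0.16, adjusted p = 1.00) nor the 2 uniform flows (−0.035, 95% interval −0.30 to 0.23, adjusted p = 0.925) differed past the test. Flow group accounted for 83.5% of the sum of squares of ENG, and 1.25% of probe sets had a share as large.

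Set against all probe sets, 2 of the 4 receptors, TIE1 and FLT1, passed for the positive gradient against baseline, where 7.01% of probe sets were called, 2.74% higher and 4.27% lower. For the negative gradient against baseline 1 of 4, TIE1, passed, where 1.67% were called. With the block 2 of 4, TIE1 and ENG, passed there, where 6.62% were called. For high stress against baseline 0 of 4 passed by limma, where 0.408% were called, and 1 of 4, FLT1, with the block, where 5.39% were called. TIE1 and FLT1 had an unadjusted p under 0.05 there, as did 14.9% of all probe sets. For the positive against the negative gradient, 0 of 4 and 0% of all probe sets passed by limma, and 0 of 4 with the block, where 0.025% were called. FLT1 was the only receptor with an unadjusted p under 0.05 there (0.0169), and 5.19% of all probe sets had one. For the positive gradient against high stress 0 of 4 and 0% passed, with unadjusted p-values of 0.0212 for TIE1 and 0.0116 for ENG, and 5.93% of all probe sets had one under 0.05. For the negative gradient against high stress 0 of 4 passed by limma, where 0.0958% were called, and TIE1, FLT1 and ENG had an unadjusted p under 0.05, as did 15.3% of all probe sets. Without high replicate 3, 1 of 4, TIE1, passed against high stress for each gradient, where 1.42% (positive) and 7.36% (negative) of probe sets were called. Without it the background was 13.5% for the positive gradient, 8.63% for the negative gradient and 0.0708% for high stress against baseline. With the block 17% of probe sets were called for the positive gradient against baseline, where TIE1 and FLT1 passed. The block called 4.29% for the negative gradient against high stress, FLT1 and ENG among them, but there the replicate 3 arrays did not deviate together and the numbers were not taken as pairs.

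Groups that do not overlap are common at 3 arrays each. For the positive gradient against baseline TIE1, FLT1 and ENG did not overlap, and neither did 36.5% of all probe sets. TIE1 and ENG did not for the negative gradient against baseline, against 29.5%, and for high stress against baseline TIE1 and FLT1 did not, against 19%. Between the gradients FLT1 alone of the receptors did not overlap, against 10.7%. Against high stress ENG did not overlap for the positive gradient (8.54% of all probe sets), and FLT1 and ENG did not for the negative gradient (15.6%).

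**Figure D3:**
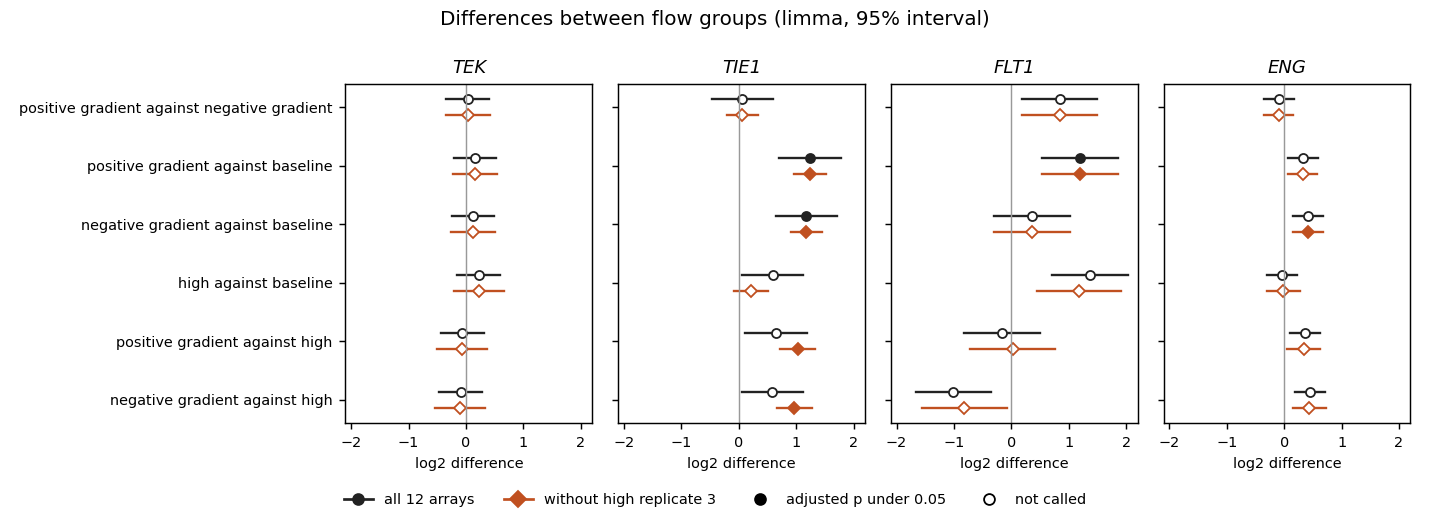
Log2 difference of group means (x axis) of the 4 receptors in the 6 comparisons (y axis), first group minus second, with 95% intervals from limma. Black circles use all 12 arrays and orange diamonds leave out high replicate 3, and filled symbols had an adjusted p under 0.05. TIE1 and FLT1 were called for the positive gradient against baseline, and TIE1 against high stress only without that array.

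The pathways of these receptors were followed in gene lists, in each of which a gene stands by its brightest probe set. Of the angiopoietin and TIE pathway 5 of 21 genes were measured. ITGA5, an integrin chain of the fibronectin receptor, rose by 1.04 (SE 0.143, adjusted p = 0.0135 by limma) under the positive and by 0.71 (adjusted p = 0.0388) under the negative gradient against baseline, and stood 0.65 higher at high stress (adjusted p = 0.0686; 0.0175 with the block). The latter was 0.49 without high replicate 3 (adjusted p = 0.174; 0.0565 with the block). PTPRB, the phosphatase VE-PTP that dephosphorylates TEK, had means of 7.69 ± 0.58 (SD, n = 3) for the negative gradient, 7.94 ± 0.64 for baseline, 8.49 ± 0.69 for the positive gradient and 8.98 ± 0.47 for high stress. Like TEK it was lowest on replicate 2 of each group. High against baseline was 1.04 for PTPRB (adjusted p = 0.241; 0.00271 with the block), and 1.03 without high replicate 3 (adjusted p = 0.428; 0.0112 with the block). PIK3CA, AKT1 and SHC1, kinases and an adaptor of the pathway, did not pass in any comparison at their brightest probe sets without the block. The dimmest of the 3 SHC1 probe sets was called for the positive (1.02, adjusted p = 0.0360) and the negative gradient (1.26, adjusted p = 0.0389) against baseline. The middle one was not (0.19 and 0.29). With the block 3 of 5 rose for the positive gradient against baseline, and AKT1 was one of them (0.40, adjusted p = 0.0451). For the negative gradient against baseline the block gave 1 risen and 1 fallen, the latter PIK3CA (−0.51, adjusted p = 0.143; 0.0462 with the block). The median of the 5 genes was 0.40 for the positive and −0.10 for the negative gradient against baseline, where the medians of all probe sets were 0.012 and −0.017.

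Of the VEGF list, 6 of 22 ligands, receptors and partners were measured, and KDR, the main signalling receptor, was not among the named probe sets. VEGFB, a ligand of FLT1, fell by 0.87 on the log2 scale under the positive gradient against baseline (SE 0.172, adjusted p = 0.0211 by limma). VEGFB means were 8.20 ± 0.35 (SD, n = 3) for baseline, 7.70 ± 0.20 for the negative gradient, 7.43 ± 0.16 for high stress and 7.33 ± 0.068 for the positive gradient. Every baseline array of VEGFB was above every array of the other flows. Taken 1 flow at a time and in either direction, 36.5% of all probe sets did not overlap baseline for the positive gradient. The shares were 29.5% for the negative gradient and 19% for high stress. High against baseline was −0.77 (adjusted p = 0.0710; 0.00892 with the block), or −0.71 without high replicate 3 (adjusted p = 0.200; 0.0357 with the block), and the negative gradient against baseline −0.50 (adjusted p = 0.116; 0.0492 with the block). The co-receptors NRP1 and NRP2 and the ligand VEGFC did not pass in any of the 6 comparisons, with or without the block. The NRP1 difference was −0.16 for the positive gradient against baseline (SE 0.290, adjusted p = 0.752), and the VEGFC difference was −0.082 (SE 0.204, adjusted p = 0.820). With the block 2 of the 6 genes fell for each gradient against baseline, VEGFB and RASIP1. RASIP1 stood at −0.67 for the positive (adjusted p = 0.152; 0.0456 with the block) and at −0.77 for the negative gradient (adjusted p = 0.143; 0.0482 with the block). The median of the 6 genes was −0.19 for the positive gradient against baseline and −0.12 both for the negative gradient and for high stress against baseline.

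Of the endoglin, BMP9 and TGF-beta list, 17 of 39 genes were measured. For the positive gradient against baseline 3 rose and none fell (median −0.029 over the 17), and with the block 4 rose and 2 fell. ID1, a target gene of BMP signalling, rose by 0.80 (SE 0.147, adjusted p = 0.0182 by limma). ACVRL1, the type I receptor that works with endoglin, rose by 0.62 (adjusted p = 0.0387), and ACVR1, a related type I receptor, by 0.63 (adjusted p = 0.0427). ACVR1 also rose for the negative gradient against baseline, by 0.77 (adjusted p = 0.0415), and 16 of 17 did not pass (median 0.044). With the block 4 rose and 0 fell for the negative gradient. ACVRL1 stood at 0.55 there (adjusted p = 0.0805; 0.0356 with the block) and ID1 at 0.54 (adjusted p = 0.0691; 0.0387 with the block). Like TIE1, ACVRL1, ACVR1 and ITGA5 had the 6 gradient arrays and high replicate 3 above the other 5 uniform-flow arrays. BMPR2, the type II receptor of BMP9, stood at −0.22 for the positive and −0.49 for the negative gradient against baseline, and TGFBR2, the type II receptor of TGF-beta, at −0.40 (adjusted p = 0.0622; 0.0334 with the block) and −0.18. Neither receptor passed without the block. ID3, another target of BMP signalling, stood at 0.25 and 0.29 and did not pass. PMEPA1, a TGF-beta target, stood at 0.53 for the positive (adjusted p = 0.101; 0.0300 with the block) and at 0.56 for the negative gradient (adjusted p = 0.120; 0.0456 with the block). For high stress against baseline 0 of 17 passed by limma and 1 with the block (ID1, 0.61, adjusted p = 0.0204). ID1 stood at 0.55 without high replicate 3 (adjusted p = 0.225; 0.0701 with the block). BMP4, a ligand of the family, had the smallest p of the list between the gradients (−1.38, adjusted p = 0.552).

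**Figure D4:**
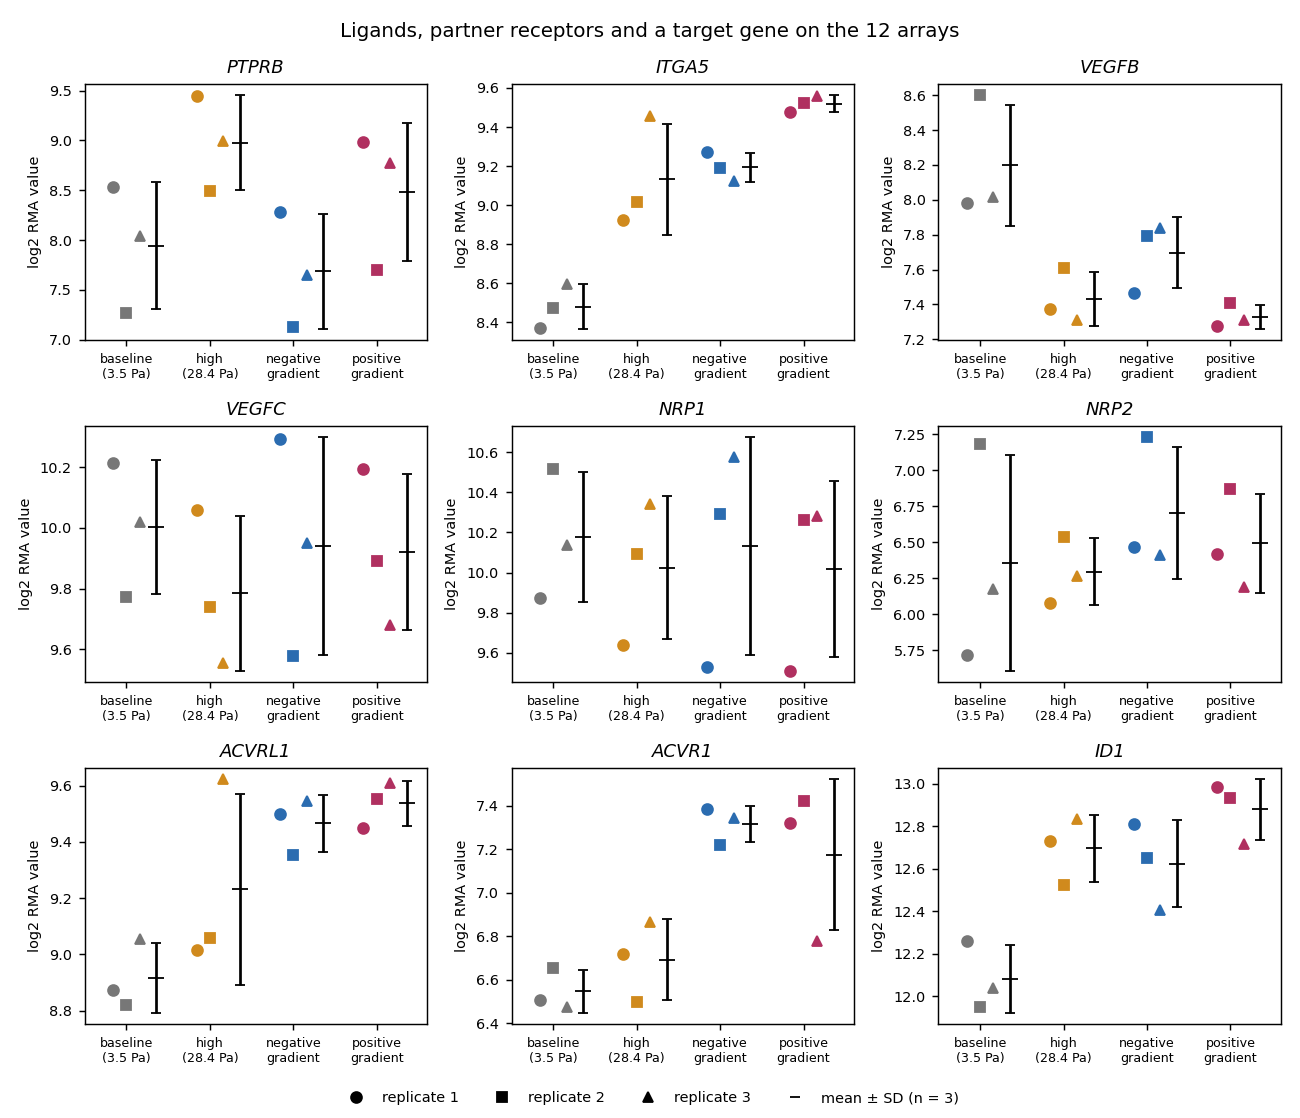
Log2 RMA value (y axis) of 9 genes of the receptor pathways on the 12 arrays, by flow group (x axis), with symbols for the replicate number and bars for the mean ± SD of 3 arrays. ITGA5, ACVRL1, ACVR1 and ID1 rose and VEGFB fell for the positive gradient against baseline, and PTPRB was lowest on replicate 2 of each group.

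Of the 13 endothelial markers, 10 had higher values for the positive gradient against baseline and the rest lower ones. TIE1, FLT1 and NOS3, the endothelial nitric oxide synthase (1.72, adjusted p = 0.0254), passed by limma. With the block 4 of the 13 rose and 2 fell. Of the 3 fibroblast markers THY1, a surface glycoprotein, fell (−1.05, adjusted p = 0.0498). THY1 ran opposite to TIE1 over the 12 arrays (Pearson's r −0.96), and its high-stress arrays spread from 6.07 to 7.46. The other lists had few calls by limma, and their counts are for the positive gradient against baseline unless stated. Of 6 measured among 34 other receptor tyrosine kinases, growth factors and ephrins, KIT, the stem cell factor receptor (−1.36), and EFNA1, an ephrin ligand (−0.96), fell. They also fell for high stress against baseline (−1.17 and −0.85), calls that were lost without high replicate 3 (−1.06, adjusted p = 0.170, and −0.76, adjusted p = 0.127). Of 9 measured among 14 sheddases and inhibitors, which can release receptor ectodomains or restrain that release, TIMP1, a metalloprotease inhibitor, rose by 1.25 and PSEN2, a gamma-secretase subunit, fell by 0.93. Of 6 measured Notch and tip-cell genes among 20, PLAUR, the urokinase receptor, rose by 1.22. Of 4 measured FOXO1 targets among 17, FBXO32, a ubiquitin ligase subunit, fell by 2.08. Of 15 measured hypoxia genes among 20, NDRG1, a stress-response gene, rose (0.58), and ADM, a vasodilator peptide (−1.47), and BNIP3, a mitophagy receptor (−1.15), fell. Of 11 measured endothelial transcription factors among 26, 0 passed by limma in any comparison without the block. With the block 2 rose and 2 fell. KLF4 was among those that rose (1.11, adjusted p = 0.0785; 0.00572 with the block). For the negative gradient against baseline the block gave 0 risen and 1 fallen, and for high stress against baseline 1 risen and 2 fallen. ERG, an ETS factor known to activate endothelial receptor genes, stood at −0.63 at its brighter (adjusted p = 0.104; 0.0145 with the block) and at 1.17 at its dimmer probe set (adjusted p = 0.0858). FLI1, a relative of ERG, stood at 0.18 (adjusted p = 0.400).

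Among the named probe sets, those with profiles most like each receptor were ranked by Pearson's r over the 12 arrays, which share groups, replicate numbers and RNA quality. For TEK they were CAST, the calpain inhibitor (0.93), HMMR, a hyaluronan receptor of dividing cells (0.91), DAB2, an endocytic adaptor (0.90), MCM6, a replication helicase subunit (0.90), and EFNA4, an ephrin (0.90). With the mean of each replicate number taken off, these correlations of TEK fell to between 0.69 and 0.76. For TIE1 they were DBN1, an actin-binding protein (0.98), the dimmer AKT1 probe set (0.98), JUN, a subunit of AP-1 (0.98), RITA1, a Notch regulator (0.97), and MTA2, a chromatin remodelling subunit (0.97). The TIE1 arrays form 2 sets, so these values largely repeat that split. For FLT1 they were NCEH1, a cholesterol ester hydrolase (0.94), STK38L, a kinase (0.93), KIF2A, a kinesin (0.93), YBX3, a nucleic acid binding protein (0.93), and AGO2, the small RNA effector (0.91). The most opposite to FLT1 was ADM (−0.95). For ENG they were SLC29A1, a nucleoside transporter (0.90), SELENOM, a selenoprotein of the endoplasmic reticulum (0.88), SUMF2, a sulfatase modifying factor (0.87), PRKCSH, the beta subunit of glucosidase II (0.87), and AKIRIN2, a nuclear regulator (0.87). Among the receptors themselves TIE1 and ENG had an r of 0.66, which was −0.097 once group means were taken off. TEK had an r of 0.17 with TIE1, 0.31 with FLT1 and 0.099 with ENG. With the mean of each replicate number taken off, these were 0.32, 0.68 and 0.082. FLT1 had an r of 0.43 with TIE1 and −0.21 with ENG, which were 0.36 and −0.71 once group means were taken off.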

How the data were processed

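RNA of bovine aortic endothelial cells was hybridized to 12 Affymetrix arrays. Log2 values were deposited by the authors after RMA, per the submitters' processing notes, which also name limma. For versions, settings and genome build the sources used here give nothing. The smaller deposited series matrix repeats 7194 of the 24128 probe sets with identical log2 values and set only 1 alternative. No test used the 112 control probe sets. Of the 24016 others 4726 had 1 symbol in the annotation, and 4715 of these matched the reference annotation (ARS-UCD2.0) by Entrez number, the 4 receptors included.

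All arrays entered 1 limma fit (3.58.1, R 4.3.3, eBayes default, 8 residual and 4.95 prior degrees of freedom) with a mean per group. P-values of each of the 6 comparisons were adjusted over all 24016 probe sets (Benjamini-Hochberg) and called under 0.05. SE is limma's moderated standard error. The fit was tested on simulated data with independent noise on each array. That test does not cover deviations shared by arrays of the same number, or an array that stands apart from its group. The number of arrays limits the precision.

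Same-numbered arrays deviated together from their group means: the correlation over probe sets was above 0.1 for 17 of 18 pairs, and −0.079 for replicate 3 of the negative gradient and high groups. The numbers were therefore taken as pairs in 5 comparisons, on the data alone. A blocked fit is given beside receptor results of these 5 whose call it changes, and beside the TIE1 and FLT1 calls against baseline. For the lists it is given for some genes only, and the block changed calls of further list genes. Receptors, lists and tests were chosen with earlier results of these data known. Named genes were the 4 receptors, up to 4 called genes a list and comparison by size (or the 2 smallest p), a set of ligands, receptors and targets, and the 5 most like profiles; the multi-probe-set genes were added after their values were seen. Alternatives were the block (fixed or random), leaving out each array, fitting only 2 groups, eBayes with trend, array weights, a filter on dim probe sets, median centring, and adjustment over the smaller matrix.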

Additional observations from a re-analysis of the deposited data

How the results depend on the processing

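The 4 receptor probe sets were recomputed under each alternative. The number of receptors called for the positive gradient against baseline was 2, 1 when only the arrays of these groups were fitted, and 3 with the replicate block and without high replicate 3 (TIE1, FLT1 and ENG); leaving out 1 array gave 0 to 2. For the negative gradient against baseline it was 1, and 2 with the fixed or the random replicate block, with adjustment over the smaller matrix, or with the block and without high replicate 3 (added after seeing the data); leaving out 1 array gave 0 to 2. For high against baseline it was 0, and 1 with the fixed or random block, the smaller matrix, or the block without high replicate 3; leaving out 1 array gave 0 to 1. For the positive gradient against high it was 0, and 1 with the block without high replicate 3; leaving out 1 array gave 0 to 1. For the negative gradient against high, where the numbers did not pair the arrays, it was 0, and 2 with the fixed block (FLT1, adjusted p = 0.0188, and ENG, 0.0436), 2 with array weights, 1 with the smaller matrix and 3 with the block without high replicate 3; leaving out 1 array gave 0 to 1. Trend, dim-filter and centring settings changed no receptor call, and no alternative called a receptor between the gradients. The cause of these moves was not tested, apart from the fewer probe sets adjusted over or arrays fitted.

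Signs turned only when 1 array was left out, and only for differences that were not called. TEK ranged from −0.056 to 0.13 (positive against negative gradient), −0.011 to 0.28 and −0.043 to 0.25 (positive and negative gradient against baseline), and −0.17 to 0.050 and −0.20 to 0.017 (positive and negative gradient against high). The same held for TIE1 between the gradients (−0.034 to 0.14), ENG for high against baseline (−0.13 to 0.044) and FLT1 for the positive gradient against high (−0.59 to 0.15). Of all probe sets, 1684 were called for the positive gradient against baseline and 4074 with the block, 401 and 1590 for the negative gradient, 98 and 1294 for high, and 23 and 1030 for the negative gradient against high. Without high replicate 3 the counts were 3248, 2073, 17 and 1767, and 342 in place of 0 for the positive gradient against high. For the positive gradient against baseline, leaving out positive replicate 1 gave 41, and leaving out 2 or 3 gave 0, baseline replicate 1 gave 373, 2 gave 1060 and 3 gave 37. For the negative gradient against baseline, leaving out any 1 negative gradient array or baseline replicate 1 or 3 gave 0, and any 1 positive gradient array 109 to 171. Leaving out high replicate 2 gave 0 for the negative gradient against high, and the other arrays but high replicate 3 gave 1 to 21. For high against baseline the lowest other count was 23, without high replicate 1.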
